A study of Homo sapiens with 9 samples.

Results

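RAB40C, FN3KRP, FN3K and TNNC1 are 4 protein-coding genes among the 58174 genes of a TPM table, taken by name. The members were selected on the measured TPM of the NFE2L1 and NFE2L1DC libraries: RAB40C, FN3KRP and TNNC1 were chosen because they read lower in cells overexpressing full-length NFE2L1 than in cells overexpressing NFE2L1DC, and FN3K was added as the paralogue of FN3KRP. That difference is therefore described without a test. The table covers 9 RNA-seq libraries in 3 groups of 3, all labelled as the HepG2 line, which was derived from a human liver tumour. The first group carries the genotype label NFE2L1 overexpression. The second carries the label NFE2L1DC overexpression, which the protocol writes NFE2L1ΔC; the extent of what the delta sign removes is not described there. The third, the control, is labelled WT and is named in the protocol after the pLVX lentiviral vector. All groups grew in high-glucose DMEM with 10% FBS. Each overexpressing group is presented as a single established line, and the sources used here do not say whether its 3 libraries came from separate cultures. The p-values below therefore cover only the spread between libraries, which may be technical.

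The 4 genes belong to 3 unrelated families. RAB40C is a small GTPase of the Rab superfamily that carries a SOCS box, a domain through which RAB40 proteins join the cullin CUL5 and elongins B and C in a ubiquitin ligase. Fructosamine 3-kinase, the product of FN3K, phosphorylates sugars that have attached to lysines of proteins without an enzyme, after which the adduct falls off, and one of its reported substrates is NFE2L2, the close relative of NFE2L1. The related kinase FN3KRP acts on other ketosamines such as ribulosamines, but not on fructosamines. TNNC1 encodes the calcium-binding subunit of troponin in cardiac and slow skeletal muscle, where calcium binding releases the block on contraction.

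FN3KRP (ENSG00000141560) and FN3K (ENSG00000167363) lie next to each other on the plus strand of chromosome 17, at 82716683 to 82730328 and 82735575 to 82751197 in GRCh38. Their coding sequences are 930 bases each and are identical at 70.6% of aligned bases. The stretches below show the longest run that both coding sequences share, 13 bases in capitals with 30 bases on either side, because it sets how far reads of the neighbours could be confused. Coding sequences here are from GENCODE release 29 transcripts, 5′ to 3′.
FN3KRP: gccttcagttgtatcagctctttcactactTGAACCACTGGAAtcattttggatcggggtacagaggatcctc
FN3K: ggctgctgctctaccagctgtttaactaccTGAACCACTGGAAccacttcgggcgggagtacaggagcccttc

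RAB40C (ENSG00000197562, chromosome 16, 589357 to 629272, plus strand) has a closer relative in RAB40B, which lies on chromosome 17 at 82654973 to 82698728 on the minus strand and is the protein-coding gene just before FN3KRP. The RAB40C and RAB40B coding sequences, of 846 and 837 bases, are identical at 80.4% of aligned bases. Their longest shared run is 55 bases, shown in capitals with the same flanks, and reads that fall wholly within it cannot be told apart.
RAB40C: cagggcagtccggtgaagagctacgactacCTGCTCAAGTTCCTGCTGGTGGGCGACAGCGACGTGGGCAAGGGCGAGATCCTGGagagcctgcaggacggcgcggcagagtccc
RAB40B: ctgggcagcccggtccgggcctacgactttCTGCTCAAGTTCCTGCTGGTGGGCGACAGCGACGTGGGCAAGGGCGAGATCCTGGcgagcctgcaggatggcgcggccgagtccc

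TNNC1 (ENSG00000114854) lies on chromosome 3 at 52451102 to 52454070 on the minus strand. NFE2L1 and its relatives bind the antioxidant response element, whose core is TGACNNNGC. The 250 bases before the annotated start are shown for RAB40C and RAB40B, the closer of the paralogue pairs, with matches to the core on either strand in capitals. The sequences are from RefSeq on GRCh38.p14 and read 5′ to 3′ along the gene. The RAB40C window is chr16:589107-589356 on the plus strand, upstream of the first of 3 listed starts, and the RAB40B window is chr17:82698699-82698948 on the minus strand.
RAB40C: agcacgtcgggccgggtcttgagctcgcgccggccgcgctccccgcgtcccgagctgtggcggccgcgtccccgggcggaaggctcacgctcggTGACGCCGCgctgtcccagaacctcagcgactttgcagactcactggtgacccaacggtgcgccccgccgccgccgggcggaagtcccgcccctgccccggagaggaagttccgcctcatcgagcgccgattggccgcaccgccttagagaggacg
RAB40B: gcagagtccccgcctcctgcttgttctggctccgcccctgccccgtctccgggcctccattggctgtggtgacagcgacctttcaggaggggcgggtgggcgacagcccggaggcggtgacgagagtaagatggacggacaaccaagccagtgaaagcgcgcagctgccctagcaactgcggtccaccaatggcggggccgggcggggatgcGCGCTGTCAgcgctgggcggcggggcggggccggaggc

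Each of these windows held 1 match to the core, as did 10.9% of the 35116 promoter windows of this length at least once. The window before FN3K and the windows before the other RAB40C starts held 0 matches. The AP-1 motif TGANTCA, searched on both strands and found in 6.57% of all windows, was absent from all of them. FN3KRP and TNNC1 have no entry in the promoter table used. A match describes letters only.

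The 4 genes were all kept by the filter of at least 1 TPM in at least 3 libraries, as were 14118 genes in all. TPM is scaled within a library, so depth is unknown and no counting interval can be given. Between 13057 and 13950 genes reached 1 TPM in a library. NFE2L1 itself averaged 247 ± 93.5 TPM in the NFE2L1 line, 448 ± 22.9 TPM in the NFE2L1DC line and 83.3 ± 20.2 TPM in control (SD, n = 3), and was called higher than control in both lines, also without control replicate 3 (log2 fold changes of 1.35 and 2.27, limma adjusted p = 0.00482 and 0.00202). The labelled cell type did not show in the data: of 13 hepatocyte markers, which HepG2 cells are known for, 0 averaged 1 TPM in any group. ALB, APOB, TTR and SERPINA1 were listed at 0 in all 9 libraries, and the summed markers lay between 0.0615 and 0.751 TPM. The cells are called here by their labels. Control replicate 3 stood apart, with correlations of 0.973 and 0.975 with the other controls across 14118 genes, against 0.988 between those. Its deviation from them ran against the GC content of 11445 coding genes (Spearman's rho = -0.677), so the results of the 4 genes, and of the other called genes that the lists and neighbours hold, are given against control without it as well. Without it, 36.3% of tested genes were called in NFE2L1 against control (limma adjusted p under 0.05), beside 10.4% with it. In NFE2L1DC against control the shares were 24.7% and 3.61%. Calls without control replicate 3 are to be read beside these shares. For other genes, not called with all libraries, results without control replicate 3 are not given. A list said to hold 0 called genes is thus a result with that library included.

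**Figure D1:**
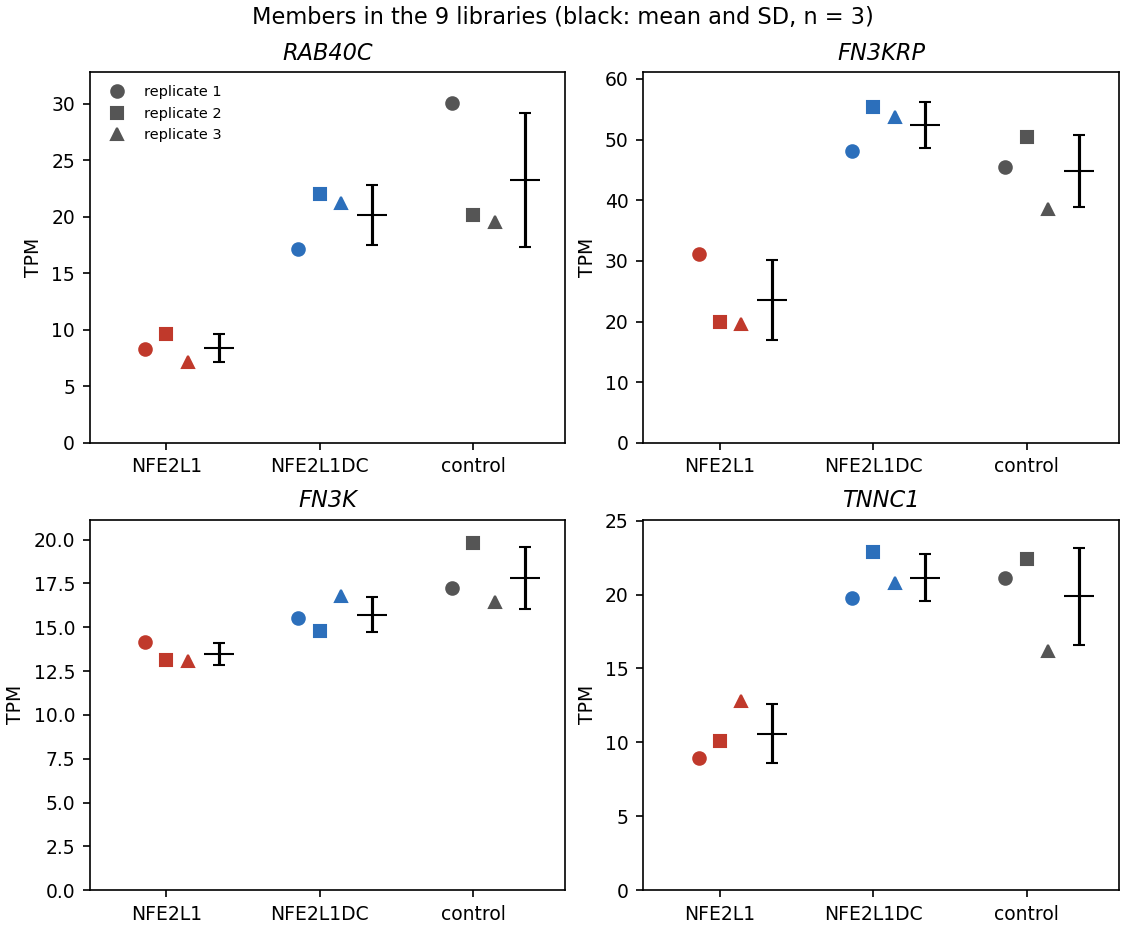
TPM (vertical axes, from 0) of the 4 genes in the NFE2L1, NFE2L1DC and control libraries; symbols mark the replicates and black marks the mean and SD of 3 libraries. RAB40C, FN3KRP and TNNC1 sit lowest in the 3 NFE2L1 libraries, at means of 8.39, 23.6 and 10.6 TPM, while FN3K spans only 13.1 to 19.8 TPM over all 9 libraries.

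RAB40C was at 8.30, 9.67 and 7.20 TPM in the NFE2L1 libraries, at 17.1, 22.1 and 21.3 TPM in the NFE2L1DC libraries and at 30.1, 20.2 and 19.6 TPM in control. The NFE2L1 libraries lay under all others, while NFE2L1DC and control overlapped and control replicate 1 was the highest of the 9. The means were 8.39 ± 1.23, 20.2 ± 2.65 and 23.3 ± 5.92 TPM in NFE2L1, NFE2L1DC and control (SD, n = 3). Against control, RAB40C fell in the NFE2L1 line to 36.1% of the control mean (log2 fold change -1.35, SE 0.19, limma adjusted p = 0.00282). NFE2L1DC differed from control by -0.18 on the log2 scale (95% interval -0.60 to 0.24, limma adjusted p = 0.587). RAB40C was chosen for the gap between the lines and may read high in NFE2L1DC. The interval does not allow for that choice, so it cannot exclude a larger drop. Without control replicate 1 the log2 fold change of NFE2L1DC against control was 0.01. Without control replicate 3 the log2 fold changes were -1.46 in NFE2L1 (limma adjusted p = 0.00140) and -0.29 in NFE2L1DC (limma adjusted p = 0.302). The NFE2L1 mean was 41.6% of the NFE2L1DC mean, a log2 fold change of -1.17 (SE 0.19) given as a description.

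Here and below a log2 fold change is a difference of mean log2(TPM + 1), which shrinks the change of low genes, and adjusted p-values run over all genes tested in a fit. These were 14118 with all libraries and the stated filter, 13918 without control replicate 3 and 14085 after the GC and length correction described below. Of the 14118, 2.57% were called lower in NFE2L1 against control at an adjusted p under 0.05, 3 of the 4 genes among them, and 7.83% were called higher. These are 363 and 1105 genes, and under median-of-ratios scaling the split was nearly even, at 526 lower and 542 higher. The libraries of NFE2L1 lay wholly under those of control for 9.53% of genes and for all 4 members. They lay wholly under those of NFE2L1DC for 5.55% of genes and again for all 4, as the choice of genes fixes for 3 of them. In NFE2L1DC against control 3.61% were called in either direction and 0 of the 4. The limma fit gave 0 of the 4 an unadjusted p under 0.05 in that comparison, and 0 were called in any alternative fit. The comparisons of the lines with control share the control libraries, and that of NFE2L1 with control shares the NFE2L1 libraries with the choice of genes, so its calls are not independent of that choice. Nor is NFE2L1DC against control, since a gene picked for the gap may read high there.

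RAB40C RNA is rich in G and C, at 64.3% over its annotated transcripts, above 95.1% of the 11445 tested coding genes. The log2 fold changes of NFE2L1 against control ran against GC content over those genes (rho = -0.449). So did those of NFE2L1DC against control (rho = -0.374) and of NFE2L1 against NFE2L1DC, the comparison that chose the genes (rho = -0.252). After removal of each library's trend with GC content and length, RAB40C was at a log2 fold change of -1.20 (limma adjusted p = 0.00133). The GC content of FN3KRP, FN3K and TNNC1 was 57.1%, 57.5% and 56.4%, above 71.9%, 73.5% and 69.5% of those genes. Their corrected log2 fold changes were -0.81, -0.25 and -0.75, and FN3KRP and TNNC1 remained called. In that fit 14.7% of tested genes were called in either direction in NFE2L1 against control. RAB40C overlaps the next gene, WFIKKN1, by 34 bases on the same strand, and WFIKKN1 averaged at most 0.116 TPM in any group.

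RAB40B was not called in either line against control. It was at 5.26, 5.21 and 4.48 TPM in NFE2L1, at 5.997, 5.92 and 5.86 TPM in NFE2L1DC and at 5.92, 5.64 and 8.10 TPM in control. The NFE2L1 libraries were again the 3 lowest of the 9. NFE2L1 differed from control by -0.32 on the log2 scale (SE 0.15, 95% interval -0.67 to 0.02, limma adjusted p = 0.188). Whether RAB40B differed from RAB40C in this was not tested. RAB40C thus stood at 1.58, 1.85 and 1.61 times the TPM of RAB40B in NFE2L1, at 2.86, 3.73 and 3.63 times in NFE2L1DC and at 5.08, 3.57 and 2.42 times in control. Its gap between NFE2L1 and NFE2L1DC is not independent of the choice of RAB40C. RAB40A and RAB40AL, the other family members, stayed under 1 TPM in every library and were not tested.

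The other parts of the RAB40 ligase were present throughout. Of 6 listed genes, 0 were called in either line against control. Over all genes, 10.4% were called in NFE2L1 and 3.61% in NFE2L1DC against control, so 0 of so few says little. Their median log2 fold change was 0.14 in NFE2L1 and 0.20 in NFE2L1DC against control, beside 0.17 and 0.12 over all genes tested. The cullin CUL5 averaged 2.20 ± 0.043, 2.83 ± 1.18 and 2.24 ± 1.16 TPM in NFE2L1, NFE2L1DC and control (SD, n = 3). The elongins ELOB (217, 225 and 245 TPM) and ELOC (94.6, 80.8 and 61.1 TPM), in the same order of groups, were far more abundant. The RING subunit RNF7 was nearly level at 46.0, 46.2 and 45.6 TPM. UBE2F, which passes the modifier NEDD8 to CUL5, had 23.5, 21.6 and 19.8 TPM, and its partner ligase ARIH2 96.3, 89.7 and 71.7 TPM. Of 7 genes whose proteins have been linked to RAB40 ligases, among them the GTPases RAP2A, RAP2B and RAP2C and the phosphatase subunits PPP6C and ANKRD28, 0 were called in either line against control. The same shares over all genes apply. RAP2C was at 4.98, 4.29 and 9.65 TPM in control and at 9.39, 9.65 and 9.92 TPM in NFE2L1. LIMA1, of the same list, was at 11.5, 11.9 and 28.1 TPM in control and at 26.6, 22.8 and 28.2 TPM in NFE2L1. For both, control replicate 3 stood above the other controls.

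SOCS proteins use the same box to reach elongins and CUL5, and 2 of the 6 tested rose in NFE2L1 against control, with 0 lower. Over all genes, 7.83% were called higher and 2.57% lower in that comparison. SOCS3, a feedback inhibitor of cytokine signalling, had 41.4, 40.1 and 40.5 TPM in NFE2L1, 35.8, 31.8 and 34.0 TPM in NFE2L1DC and 28.0, 24.6 and 25.2 TPM in control. The 3 groups did not overlap (log2 fold change of NFE2L1 against control 0.63, limma adjusted p = 0.00350). It was 0.61 without control replicate 3 (limma adjusted p = 0.00234). SOCS6 averaged 3.31 ± 0.461, 2.38 ± 0.238 and 1.46 ± 0.692 TPM in NFE2L1, NFE2L1DC and control (SD, n = 3; limma adjusted p = 0.0332 in NFE2L1 against control). The SOCS6 call was lost in 8 of 17 other fits, among them those without control replicate 1, control replicate 2 or any single NFE2L1 library, with log2 fold changes between 0.58 and 1.20. It was 1.06 without control replicate 3 (limma adjusted p = 0.00181). In NFE2L1DC against control 0 of the 6 were called, beside 3.61% of all genes. The list's median log2 fold change was 0.48 in NFE2L1 and 0.32 in NFE2L1DC against control, beside 0.17 and 0.12 over all genes.

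FN3KRP was the most abundant of the 4 genes. It was at 31.2, 19.97 and 19.6 TPM in NFE2L1, at 48.2, 55.5 and 53.7 TPM in NFE2L1DC and at 45.5, 50.4 and 38.6 TPM in control. NFE2L1 replicate 1 lay above the other NFE2L1 libraries but under the lowest control, and NFE2L1DC and control overlapped. The means were 23.6 ± 6.57, 52.4 ± 3.81 and 44.8 ± 5.94 TPM in NFE2L1, NFE2L1DC and control (SD, n = 3). FN3KRP fell in the NFE2L1 line to 52.6% of the control mean (log2 fold change -0.92, SE 0.18, limma adjusted p = 0.0136). The call was narrowly lost without NFE2L1 replicate 2 or 3 or control replicate 1 or 2, at limma adjusted p = 0.0575, 0.0582, 0.0501 and 0.0605. Without control replicate 3 the log2 fold change was -1.02 (limma adjusted p = 0.00469). NFE2L1DC differed from control by 0.23 on the log2 scale (95% interval -0.17 to 0.62, limma adjusted p = 0.471), and by 0.13 without control replicate 3. The NFE2L1 mean was 44.9% of the NFE2L1DC mean (log2 fold change -1.15, SE 0.18, not tested).

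FN3K was not called in either line against control. It was at 14.2, 13.1 and 13.1 TPM in NFE2L1, at 15.5, 14.8 and 16.8 TPM in NFE2L1DC and at 17.2, 19.8 and 16.4 TPM in control. The NFE2L1 libraries were the 3 lowest of the 9, though the highest of them lay only just under the lowest NFE2L1DC library. The means were 13.5 ± 0.618, 15.7 ± 1.00 and 17.8 ± 1.75 TPM in NFE2L1, NFE2L1DC and control (SD, n = 3). The NFE2L1 line against control gave a log2 fold change of -0.38 (SE 0.11, 95% interval -0.63 to -0.12), which missed the threshold over all genes (limma adjusted p = 0.0625). It passed without control replicate 3 (-0.43, limma adjusted p = 0.0170), where 36.3% of all tested genes were called, against 10.4% with all libraries. It also passed under median-of-ratios scaling (-0.55, limma adjusted p = 0.0472). In NFE2L1DC against control it was -0.17 (95% interval -0.42 to 0.08, limma adjusted p = 0.402), and -0.22 without control replicate 3. Against NFE2L1DC, the NFE2L1 line differed by -0.21 on the log2 scale (SE 0.11, not tested).

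Set against its neighbour in each library, FN3KRP stood at 2.20, 1.52 and 1.496 times the TPM of FN3K in NFE2L1, at 3.10, 3.75 and 3.20 times in NFE2L1DC and at 2.64, 2.55 and 2.35 times in control. The ratio thus did not overlap between any groups and was highest in NFE2L1DC. FN3KRP was chosen for being lower in NFE2L1 than in NFE2L1DC, so the ratio's order is not independent of that choice. How often ratios of other gene pairs separate the groups was not computed. The end of FN3KRP overlaps the long noncoding gene AC024361.3 by 1165 bases on the opposite strand, and the sources used here do not say whether the libraries kept strand. AC024361.3 was listed at no more than 0.220 TPM in any library. AC024361.1, which lies within an intron of FN3K on the same strand, was listed at no more than 0.726 TPM.

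The wider list of glycation defence, 11 tested genes that remove sugar adducts or clear the reactive sugars and aldehydes behind them, with the receptor gene AGER counted in, held 1 gene lower and 0 higher in NFE2L1 against control. The gene is FN3KRP, which was chosen for being lower in NFE2L1 than in NFE2L1DC. Over all genes, 2.57% were called lower and 7.83% higher. In NFE2L1DC against control 0 of the 11 were called, beside 3.61% of all genes. The list's median log2 fold change was -0.12 in NFE2L1 and 0.02 in NFE2L1DC against control, beside 0.17 and 0.12 over all genes. GLO1 and HAGH, the glyoxalases that clear methylglyoxal, had opposite signs in NFE2L1 against control, with log2 fold changes of 0.65 (limma adjusted p = 0.113) and -0.44 (limma adjusted p = 0.139). GLO1 was at 62.2, 77.9 and 136 TPM in control and at 146, 140 and 127 TPM in NFE2L1, so control replicate 3 stood above the other controls. MDP1, a phosphatase reported to act on phosphorylated sugar amines, averaged 7.93, 10.1 and 8.60 TPM in NFE2L1, NFE2L1DC and control (limma adjusted p = 0.653 and 0.497 for the lines against control). NFE2L2 averaged 20.6 ± 5.70, 15.1 ± 1.70 and 20.8 ± 13.7 TPM in NFE2L1, NFE2L1DC and control (SD, n = 3) and was not called in any comparison.

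TNNC1 was at 8.92, 10.1 and 12.8 TPM in NFE2L1, at 19.8, 22.9 and 20.8 TPM in NFE2L1DC and at 21.1, 22.4 and 16.2 TPM in control. Every NFE2L1 library lay under all others, and NFE2L1DC and control overlapped, with control replicate 3 the lowest of these 6. The means were 10.6 ± 1.98, 21.1 ± 1.58 and 19.9 ± 3.28 TPM in NFE2L1, NFE2L1DC and control (SD, n = 3). TNNC1 fell in the NFE2L1 line to 53.3% of the control mean (log2 fold change -0.85, SE 0.16, limma adjusted p = 0.0133). As for FN3KRP the call was narrowly lost in 4 fits that left out a library, here NFE2L1 replicate 1 or 2 or control replicate 1 or 2, at limma adjusted p = 0.0567, 0.0553, 0.0531 and 0.0605. Without control replicate 3 the log2 fold change was -0.98 (limma adjusted p = 0.00209). In the NFE2L1DC line it was 0.10 against control (95% interval -0.27 to 0.46, limma adjusted p = 0.746). The sign of that value turned without control replicate 3 (-0.04) and under median-of-ratios scaling (-0.02). The NFE2L1 mean was 50.1% of the NFE2L1DC mean (log2 fold change -0.94, SE 0.16, not tested).

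The partners that TNNC1 has in muscle were mostly missing. Of the 12 troponin and tropomyosin genes 7 were tested. TNNI1, TNNI2, TNNT2 and TNNT3 were listed at 0 in all 9 libraries, and TNNI3, the cardiac inhibitory subunit, averaged 1.69, 1.28 and 1.78 TPM in NFE2L1, NFE2L1DC and control. TNNT1, the tropomyosin-binding subunit of slow muscle troponin, was the exception and was more abundant than TNNC1. It was at 32.4, 38.9 and 34.0 TPM in NFE2L1, at 31.7, 32.1 and 30.4 TPM in NFE2L1DC and at 56.6, 53.9 and 52.6 TPM in control. Both lines lay wholly under control, and the NFE2L1 libraries lay narrowly above all of NFE2L1DC (log2 fold change 0.15, limma adjusted p = 0.755). TNNT1 fell against control in NFE2L1 (log2 fold change -0.62, SE 0.09, limma adjusted p = 0.00433) and in NFE2L1DC (-0.77, SE 0.09, limma adjusted p = 0.00378). These were -0.64 and -0.80 without control replicate 3 (limma adjusted p = 0.00230 and 0.00288). On average NFE2L1DC was the lowest group for TNNT1 and NFE2L1 the lowest for TNNC1.

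The tropomyosins TPM1, TPM2, TPM3 and TPM4, which non-muscle cells also use on actin filaments, averaged 119, 401, 202 and 308 TPM in NFE2L1. They averaged 93.4, 357, 311 and 288 TPM in NFE2L1DC and 113, 375, 145 and 221 TPM in control, and 0 of these 4 were called. TPM3 had SDs of 127, 97.0 and 123 TPM, which leaves its means unordered. TPM4 was at 168, 189 and 306 TPM in control and at 311, 308 and 304 TPM in NFE2L1, so control replicate 3 stood above the other controls. Over the tested genes of the list, 0 were higher and 2 lower in NFE2L1 against control, and 0 higher and 1 lower in NFE2L1DC against control. The 2 were TNNT1 and TNNC1 itself, which was chosen for being lower in NFE2L1 than in NFE2L1DC, and the 1 was TNNT1. Over all genes, 2.57% were called lower in NFE2L1 against control and 3.61% in either direction in NFE2L1DC against control. The list's median log2 fold change was 0.05 and -0.07, beside 0.17 and 0.12 over all genes. Of the 4 calmodulin genes, which encode the ubiquitous relatives of troponin C, CALM2 alone was called, with log2 fold change 0.49 in NFE2L1 against control (limma adjusted p = 0.0463). Over all genes, 7.83% were called higher in that comparison. The CALM2 call was lost in 13 of 17 other fits, among them median-of-ratios scaling, with log2 fold changes between 0.28 and 0.64. The highest was that without control replicate 3 (limma adjusted p = 0.00270).

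Muscle markers outside the troponins were low. Of 15, only ACTC1 and MB, the gene for myoglobin, averaged 1 TPM in the NFE2L1 and NFE2L1DC lines, and in control MB and DES did. The myosin and cardiac genes MYH7, MYL2, MYL3, CKM and PLN were listed at 0 throughout. The summed level of the 15 was 10.9 to 14.7 TPM in NFE2L1, 14.5 to 16.0 TPM in NFE2L1DC and 20.5 to 23.8 TPM in control, most of it from MB. The others did not all follow the sum. ACTC1 averaged 1.47, 1.46 and 0.859 TPM in NFE2L1, NFE2L1DC and control, and DES 0.391, 0.598 and 1.04 TPM. Neither was called against control. RYR2, which was not tested, averaged 0.320, 0.333 and 0.113 TPM in the same order. MB was at 11.98, 8.88 and 11.7 TPM in NFE2L1, at 12.6, 11.9 and 12.4 TPM in NFE2L1DC and at 19.4, 21.5 and 17.8 TPM in control. It fell in NFE2L1 against control (log2 fold change -0.80, SE 0.14, limma adjusted p = 0.00839) and in NFE2L1DC against control (-0.62, limma adjusted p = 0.0428). The second call was lost in 10 of 17 other fits, among them those without any single NFE2L1DC library and without control replicate 1 or 2, with log2 fold changes between -0.74 and -0.55. Without control replicate 3, MB was at -0.86 in NFE2L1 and -0.68 in NFE2L1DC (limma adjusted p = 0.00279 and 0.0116). Its part in the TNNC1 result was not tested. In bulk RNA, fewer cells of a type and less RNA per cell cannot be told apart.

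**Figure D2:**
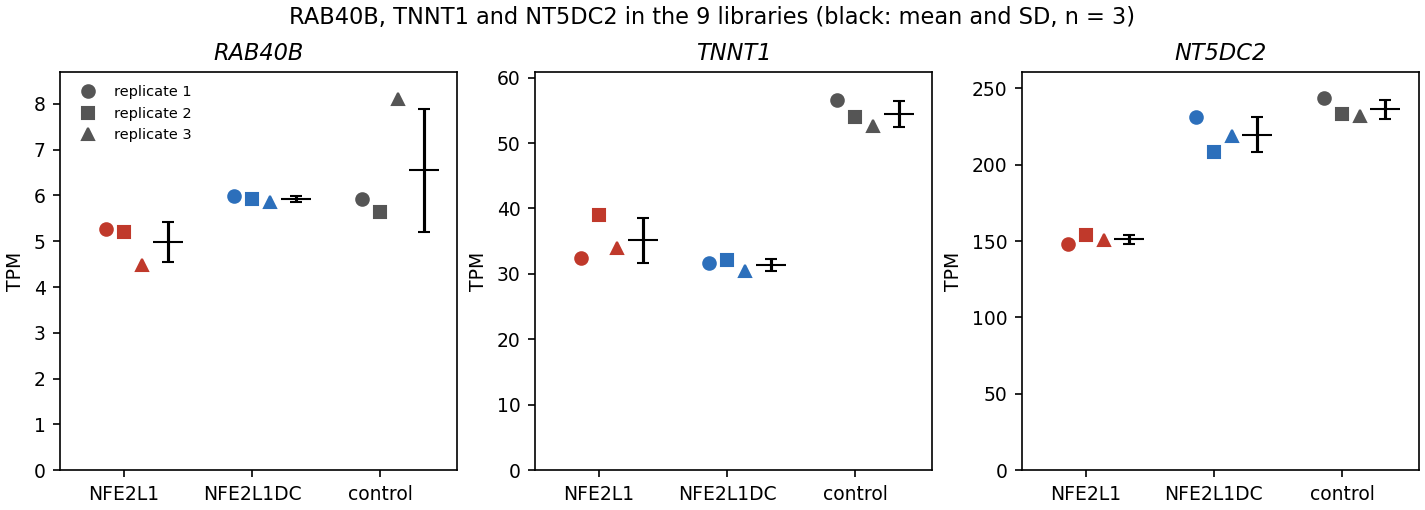
TPM (vertical axes, from 0) of RAB40B, TNNT1 and NT5DC2 in the NFE2L1, NFE2L1DC and control libraries; symbols mark the replicates and black marks the mean and SD of 3 libraries. TNNT1 is low in both lines, at means of 35.1 and 31.4 TPM against 54.4 TPM in control, whereas NT5DC2 averages 151 TPM in NFE2L1, 220 TPM in NFE2L1DC and 236 TPM in control.

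The genes around the 4 were then compared with them, and whether a whole stretch of chromosome moved was not tested. The 3 protein-coding genes on each side of each member made 18 neighbours, of which 12 passed the filter. In NFE2L1 against control 1 of the 12 was called lower and 0 higher, and in NFE2L1DC against control 0 were called. Over all genes, 2.57% were called lower and 7.83% higher in the first comparison, and 3.61% in either direction in the second. The neighbours' median log2 fold change was -0.20 in NFE2L1 and -0.07 in NFE2L1DC against control, beside 0.17 and 0.12 over all genes. Next to RAB40C, METTL26 averaged 157, 165 and 187 TPM and MCRIP2 84.6, 92.6 and 102 TPM in NFE2L1, NFE2L1DC and control. Neither passed the test (limma adjusted p = 0.0675 and 0.1398 in NFE2L1 against control). On the other side PIGQ, which acts in the first step of GPI anchor synthesis, was not called either, at a log2 fold change of -0.37 (SE 0.40).

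Around FN3KRP and FN3K the signs were mixed. WDR45B, an autophagy gene, had the largest positive log2 fold change of the 12 in NFE2L1 against control, 0.90, without passing the test (limma adjusted p = 0.0704). It was at 34.7, 38.7 and 71.1 TPM in control and at 75.9, 90.9 and 93.8 TPM in NFE2L1, so control replicate 3 stood above the other controls. The tubulin chaperone gene TBCD, just after FN3K, was at -0.15 (SE 0.35). The neighbour called lower was NT5DC2, a gene of the 5′-nucleotidase domain family that lies 70314 bases beyond TNNC1. It was at 148, 154 and 151 TPM in NFE2L1, at 231, 208 and 219 TPM in NFE2L1DC and at 243, 234 and 232 TPM in control. The NFE2L1 libraries lay far under all others, with a log2 fold change against control of -0.64 (SE 0.06, limma adjusted p = 0.000494) and of -0.66 without control replicate 3 (limma adjusted p = 0.000641). The NFE2L1DC libraries lay just under control (log2 fold change -0.11, limma adjusted p = 0.358). Between it and TNNC1 lie NISCH, at a log2 fold change of -0.07 in NFE2L1 against control (limma adjusted p = 0.793), and STAB1, which did not pass the filter. On the other side, PHF7 lies 27460 bases from TNNC1 and was not called. Its log2 fold changes were -0.42 in NFE2L1 and -0.51 in NFE2L1DC against control (limma adjusted p = 0.0730 and 0.0667). BAP1, beyond PHF7, was at 0.12 in NFE2L1 against control (limma adjusted p = 0.402).

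**Figure D3:**
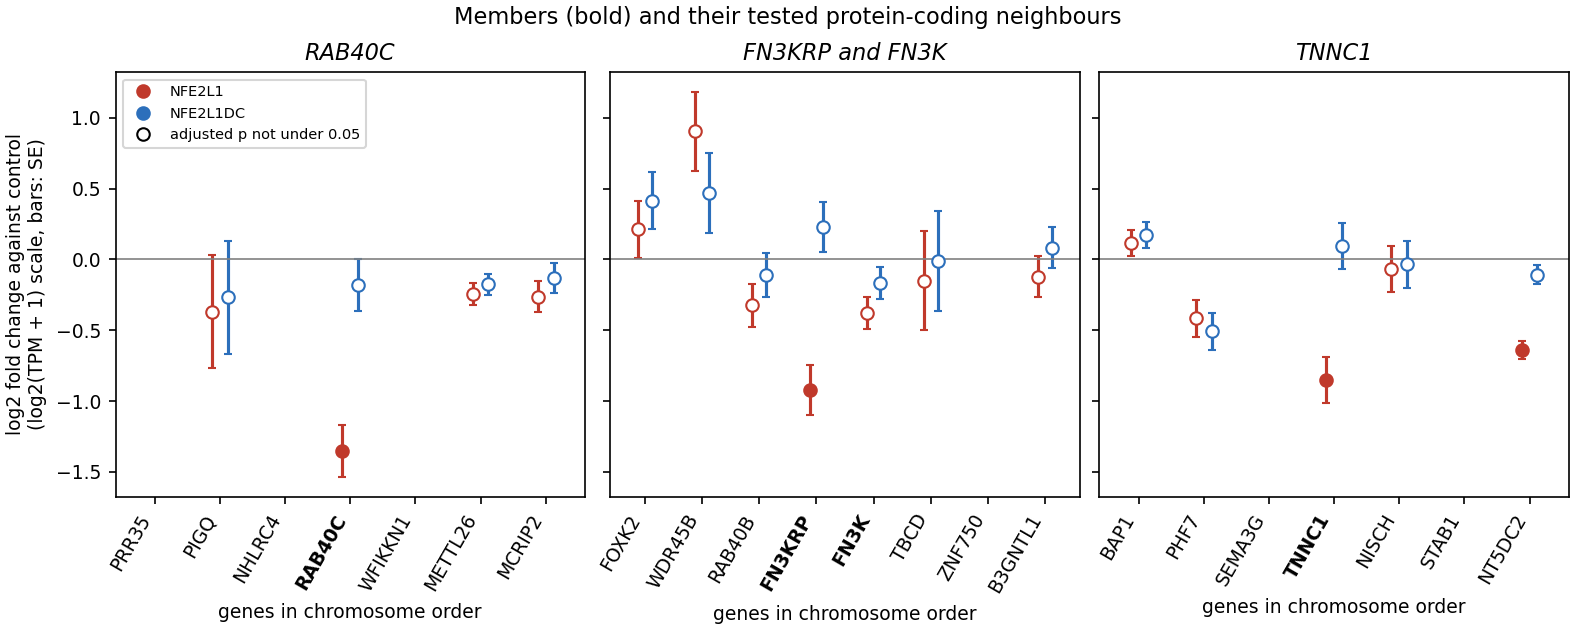
Log2 fold change against control on the log2(TPM + 1) scale (vertical axis, bars are standard errors) for the members in bold and their tested protein-coding neighbours in chromosome order (horizontal axes, not to scale), in the NFE2L1 and NFE2L1DC lines; filled points had an adjusted p under 0.05 and genes without points were not tested. RAB40C, FN3KRP and TNNC1, at -1.35, -0.92 and -0.85 in NFE2L1, stand below the genes beside them, and NT5DC2 at -0.64 is the only other filled point.

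The pattern over the 9 libraries was shared between the members to differing degrees. The Pearson correlation of log2(TPM + 1) was 0.88 between RAB40C and TNNC1, 0.86 between RAB40C and FN3KRP and 0.85 between FN3KRP and TNNC1, given as descriptions since the choice of genes fixes the gap between groups. Once the group means were removed these were 0.12, 0.18 and -0.10. FN3KRP and FN3K had 0.76 over the libraries and 0.62 within groups, the highest within-group value of the 6 pairs. Among 13562 other genes averaging at least 1 TPM, those most like RAB40C over the 9 libraries were FLYWCH2, FAM46B, SLC25A6, PINK1 and LINC01315, with correlations between 0.946 and 0.976. PINK1, the kinase that marks damaged mitochondria, averaged 33.5 TPM in NFE2L1, 47.0 TPM in NFE2L1DC and 56.6 TPM in control.

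Those most like FN3KRP were PC, DIRAS1, RN7SL4P, MMP24 and TEAD2, between 0.907 and 0.913. PC, the pyruvate carboxylase of gluconeogenesis, averaged 69.1 TPM in NFE2L1, 84.3 TPM in NFE2L1DC and 79.9 TPM in control. Those most like FN3K were SLC50A1, TECR, COPZ2, CDKN2AIPNL and ARG2, between 0.943 and 0.967. SLC50A1, a sugar transporter, averaged 67.5 TPM in NFE2L1, 78.2 TPM in NFE2L1DC and 92.4 TPM in control. Those most like TNNC1 were DANCR, MYPOP, HSPB1, CNPPD1 and APMAP, between 0.936 and 0.964. DANCR, a long noncoding RNA that hosts snoRNAs, averaged 86.2 TPM in NFE2L1, 120 TPM in NFE2L1DC and 112 TPM in control. The 9 libraries fall into 3 groups, so such correlations mostly follow the group means, and no gene was in more than 1 of these sets.

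**Figure D4:**
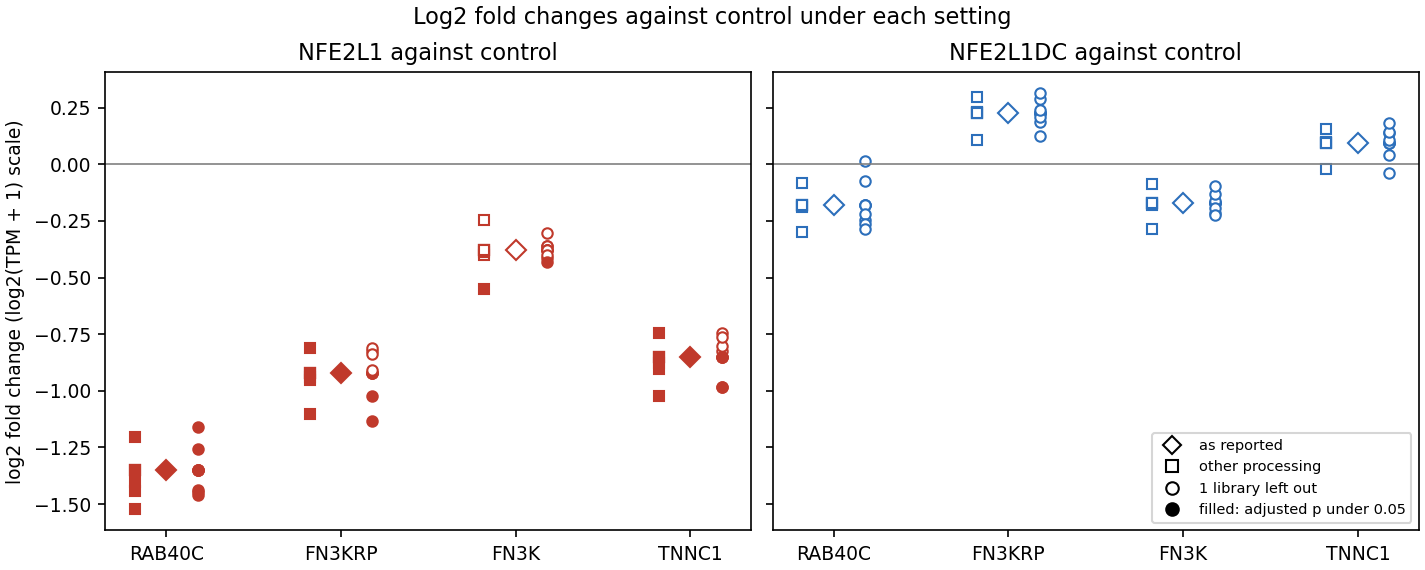
Log2 fold change (vertical axis, log2(TPM + 1) scale, or log2 with the other pseudocounts) of the 4 genes in NFE2L1 against control and NFE2L1DC against control, as reported (diamonds), under other processing (squares) and with 1 library left out (circles); filled symbols had an adjusted p under 0.05. In NFE2L1 against control RAB40C is filled throughout, between -1.52 and -1.16, and in NFE2L1DC against control no symbol is filled.

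Over 17 other fits, RAB40C was called lower in NFE2L1 against control in 17, FN3KRP and TNNC1 in 13 each and FN3K in 2. The share of all tested genes called in either direction in these fits ran from 3.18% without the filter to 36.3% without control replicate 3. These fits are not independent checks. Those that changed the filter, the groups fitted, the replicate block or the NFE2L1DC libraries left this log2 fold change as it was. For FN3KRP and TNNC1, the 4 fits that lost the call each left out an NFE2L1 or control library. All 4 genes were at negative log2 fold changes in NFE2L1 against control in every one of the 17 fits. Counted from the lowest of the 14118 log2 fold changes of NFE2L1 against control, RAB40C stood at rank 30, FN3KRP at 94, TNNC1 at 127 and FN3K at 942. The ranks are not independent of the choice of genes, which used the same NFE2L1 libraries.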

How the data were processed

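The deposited table holds TPM, a length-normalised abundance that the authors scaled to a near-constant total within each library, with no counts. Per the submitters' processing notes, CASAVA and the GRCh38 build were used; aligner, quantifier and annotation release were not given in the sources used here. TPM + 1 was log2 transformed and genes with at least 1 TPM in at least 3 libraries were fitted with limma 3.58.1 in R 4.3.3 (limma-trend, 1 mean per group, all 9 libraries, 2-sided, Benjamini-Hochberg over 14118 genes); the fit was tested on simulated data. Intervals use its moderated degrees of freedom. GENCODE release 29 matched 57836 of 58174 identifiers and gave coordinates, neighbours, coding sequences and GC content. Coding sequences were aligned in Biopython 1.88. The members, gene lists and naming rule were chosen with earlier results of these data known. Named were the members, called genes of the lists, list genes above 1 TPM in the kinase, RAB40, CUL5 and troponin lists, 3 coding neighbours on each side and the 5 genes most correlated with each member. Alternatives were scaling, pseudocount, filter, groups fitted, replicate block, GC and length correction, and leaving out each library.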

Additional observations from a re-analysis of the deposited data

How the results depend on the processing

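RAB40C, FN3KRP, FN3K and TNNC1 kept a negative log2 fold change in NFE2L1 against control in all 17 alternatives, and in NFE2L1 against NFE2L1DC each moved by less than 1 SD between replicates. FN3K passed the test under median-of-ratios scaling (-0.55). Median-of-ratios scaling moved the median of all genes in NFE2L1 against control to 0.01, against 0.17 as deposited, and in NFE2L1DC against control to 0.02, against 0.12. Under it TNNC1 in NFE2L1DC against control was at -0.022. Leaving out 1 library gave ranges, in NFE2L1 against control, of -1.46 to -1.16 for RAB40C, -1.13 to -0.81 for FN3KRP, -0.43 to -0.30 for FN3K and -0.98 to -0.74 for TNNC1. In NFE2L1DC against control they were -0.29 to 0.013 for RAB40C (without control replicate 1), 0.13 to 0.31 for FN3KRP, -0.22 to -0.10 for FN3K and -0.040 (without control replicate 3) to 0.18 for TNNC1.

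The number of genes called moved more. In NFE2L1 against control it was 1468, 947 without the filter, 848 with only the groups compared and 872 with the replicate block, and 501 to 5056 with 1 library left out. In NFE2L1DC against control it was 509, 317 under median-of-ratios scaling, 101 with only the groups compared, 198 with the replicate block and 885 after the GC and length correction, and 110 to 3440 with 1 library left out. Its calls split into 291 higher and 218 lower, while median-of-ratios scaling gave 119 higher calls and 198 lower ones. In NFE2L1 against NFE2L1DC it was 112, 58 with the replicate block, and 36 to 148 with 1 library left out. Of these 11 were lower, 6 under median-of-ratios scaling, 3 with the replicate block, and 2 or 3 without any single NFE2L1 library or without NFE2L1DC replicate 2 or 3, against 18 without control replicate 3. The highest totals were those without control replicate 3. The cause was not tested. Same-numbered libraries showed little sign of pairing, as 1 of 9 such pairs correlated over 0.1 in their deviations from the group means (-0.19 to 0.11). This does not show how the libraries were prepared. The highest value between libraries of different groups was 0.276, for NFE2L1DC replicate 1 with control replicate 3. The block changed no call of the 4 genes against control. Depth is unknown, so precision rests on 3 libraries a group.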
